A study of Mus musculus with 7 samples.

Results

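The 10 genes described here mark oligodendrocyte precursor cells and the oligodendrocytes that are just forming from them: Pdgfra, Cspg4, C1ql1, Gpr17, Enpp6, Bcas1, Olig1, Olig2, Sox10 and Nkx2-2. They were chosen by symbol from the 23413 gene symbols counted in each cortex, by a rule that uses no measured value, though with earlier results of these data known, and all 10 were found and passed the filter on low counts. RNA had been read from the brain cortex of 7 APP/PS1 mice, which carry mutant human APP and presenilin 1 transgenes under a prion promoter. The mice ate chow until 6 months of age, were then singly housed and were killed at 13 months, after 7 months on a ketogenic diet (KD, 3 mice, 90% of energy as fat, 10% as protein and under 0.5% as carbohydrate) or a control diet (CD, 4 mice, 16% fat, 10% protein and 74% carbohydrate, labelled SD in the deposited data). Every mouse carried the transgenes, so no library here shows what a brain without them would hold. The sex of each mouse is not given in the sources used here. The question asked of these genes was whether KD changed them.

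Oligodendrocytes wrap axons in myelin, and in the adult cortex they are renewed from precursors that stay spread through the tissue and keep dividing slowly. A precursor carries the PDGF receptor alpha and the proteoglycan NG2 on its surface. When it commits to differentiation it loses them, passes through a short premyelinating stage marked by Gpr17 and Enpp6, and then switches on the myelin genes. Olig1, Olig2, Sox10 and Nkx2-2 are the transcription factors of the lineage, and Olig2 and Sox10 stay on from precursor to myelinating cell.

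The DNA just before the start of transcription is shown for Pdgfra, whose level did not follow the myelin genes across the libraries, and for Enpp6, whose level went down with them in the cortices where they were lowest. Both runs hold 250 bases, end at the base before the RefSeq start, are read 5′ to 3′ on the plus strand of GRCm38.p6 (the mm10 build) and overlap no annotated exon. The Pdgfra run lies at chr5:75152001-75152250 and the Enpp6 run at chr8:46986637-46986886. Capitals mark matches, on either strand, to the core letters of the SOX factors (ACAANG) or to the E-box bound by OLIG proteins and their relatives (CANNTG).
Pdgfra: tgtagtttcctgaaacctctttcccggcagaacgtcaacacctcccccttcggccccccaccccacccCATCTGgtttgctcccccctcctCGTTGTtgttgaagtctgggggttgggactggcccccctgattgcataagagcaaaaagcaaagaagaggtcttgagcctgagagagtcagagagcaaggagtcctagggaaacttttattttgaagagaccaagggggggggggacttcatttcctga
Enpp6: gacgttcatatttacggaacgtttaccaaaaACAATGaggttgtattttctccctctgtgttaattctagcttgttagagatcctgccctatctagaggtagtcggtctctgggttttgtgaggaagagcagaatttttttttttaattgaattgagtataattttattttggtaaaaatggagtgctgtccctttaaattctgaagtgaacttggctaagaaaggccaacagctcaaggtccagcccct
The Pdgfra run held 1 match to each motif, and the Enpp6 run held 1 SOX match and no E-box. Of 32841 mouse promoter windows of this length, 36.3% held the SOX letters and 66.2% an E-box, so matches of this kind are common, and whether a factor binds there was not measured. Of the 10 genes, 5 had an entry in the RefSeq promoter table. Among these, the runs of Cspg4, Olig2 and Nkx2-2 overlap annotated exons and are not shown. Cspg4 held 0 matches to either motif, Olig2 held 1 SOX match and 0 E-boxes as Enpp6 did, and Nkx2-2 held 0 SOX matches and 3 E-boxes. Whether matches go with levels was not tested.

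Libraries held from 22272883 to 36614954 counts, and levels are given as CPM, the counts of a gene scaled to a library total of 1000000. The libraries did not look alike in their cell markers, which touches every result below. A list of 12 genes of mature, myelinating oligodendrocytes summed to 4810, 4240, 1290 and 4320 CPM in CD replicates 1 to 4 and to 4760, 2430 and 1310 CPM in KD replicates 1 to 3. CD replicate 3 and KD replicate 3 were therefore low in myelin genes, on different diets, and KD replicate 2 stood between them and the rest. CD replicate 4 stood apart in another way, with the largest value of the 7 libraries for 9 of 9 meningeal fibroblast genes, 5 of 5 endothelium genes, 7 of 9 pericyte and smooth muscle genes and 6 of 8 neuroblast and olfactory bulb genes. In these bulk samples fewer cells of a type and less RNA per cell cannot be told apart.

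Levels of different genes were compared per kilobase of annotated exon, as CPM per kb. On that scale Bcas1 was the highest with a mean of 18.0 over the 7 libraries, but its range of 5.60 to 31.2 took in those of the next genes, Olig1 with a mean of 9.75 and Pdgfra with 9.06. Gpr17 (4.72), Sox10 (4.17) and Olig2 (3.87) came next and overlapped each other in range. Cspg4 (1.12), Enpp6 (0.949) and C1ql1 (0.882) were lower and also overlapped. Nkx2-2 was the lowest with 0.195 CPM per kb, and its highest library, at 0.332, lay below the lowest of every other gene in the list except Enpp6, whose minimum was 0.300. The exon lengths join all annotated transcripts of a gene, so a gene with long unused exons is placed too low. The largest overlap with a single gene annotated on the other strand covers 11.7% of the exon sequence of Bcas1, 9.67% of Nkx2-2, 7.26% of Olig1 and 4.55% of Pdgfra. A further such gene overlaps 0.901% of Bcas1 and another 1.66% of Pdgfra. Reads of these opposite-strand genes may be counted with the genes listed here if strand was not used.

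**Figure D1:**
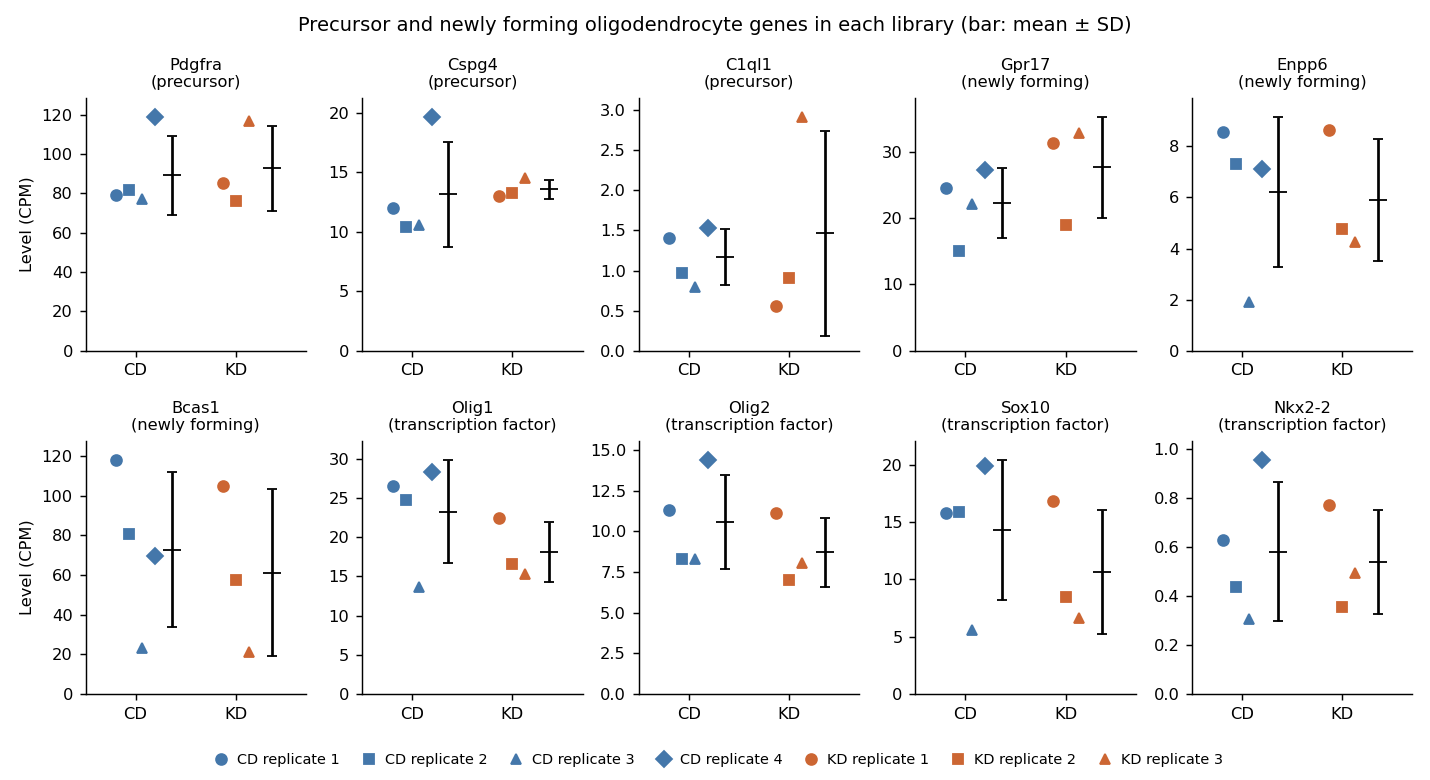
Level of each of the 10 genes in CPM (vertical axis, starting at 0) in the 4 CD and 3 KD libraries, one symbol per library, with the mean and SD of each diet in black. The CD and KD libraries overlap for every gene, and the triangles (replicate 3 of each diet) both sit low for Enpp6, Bcas1, Olig1 and Sox10. For Pdgfra, Cspg4 and Gpr17 the KD triangle is the highest of its diet, while the CD triangle lies near other CD libraries.

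The precursor genes Pdgfra and Cspg4 had nearly the same mean level on both diets. Pdgfra encodes the receptor through which PDGF drives precursors to divide (mm10 chromosome 5, 75152292 to 75198215). There were 79.0, 81.9, 76.9 and 119 CPM in CD replicates 1 to 4 and 85.2, 75.9 and 117 CPM in KD replicates 1 to 3. One library of each diet was high and the others lay close together, so the groups overlapped. The means were 89.3 ± 20 CPM (SD, n = 4) in CD and 92.9 ± 21.8 CPM (SD, n = 3) in KD, a log2 fold change of 0.07 (standard error 0.18, 95% interval -0.34 to 0.48). The high libraries, CD replicate 4 and KD replicate 3, were also the highest of their diets in all 9 meningeal fibroblast genes, a cell type that carries this receptor too. Their summed fibroblast genes reached 389 CPM in CD replicate 4 against 62.4 to 112 CPM in the other CD libraries, and 176 CPM in KD replicate 3 against 55.4 and 62.7 CPM. Whether fibroblast RNA added to Pdgfra was not tested.

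Cspg4 encodes NG2, the chondroitin sulfate proteoglycan that gives these cells their other name, and lies on chromosome 9 from 56865033 to 56899870. It had 12.0, 10.4, 10.6 and 19.7 CPM in CD and 13, 13.3 and 14.5 CPM in KD. CD replicate 4 lay far above the rest, and the KD libraries lay above the other CD libraries and below that one. The means were 13.2 ± 4.44 CPM (SD, n = 4) in CD and 13.6 ± 0.751 CPM (SD, n = 3) in KD, with a log2 fold change of 0.06 (standard error 0.21, 95% interval -0.43 to 0.55). Pericytes also make NG2, and the 9 pericyte and smooth muscle genes summed to 274 CPM in CD replicate 4, 126 to 156 CPM in the other CD libraries and 141 to 145 CPM in KD. Without CD replicate 4 the log2 fold change of Cspg4 was 0.30 (standard error 0.12), with a raw p under 0.05 but an adjusted p of 0.975 in edgeR's test, and the part of pericyte RNA in it was not tested. In that fit 33 of all tested genes reached the stricter raw p of 0.01, beside 51 with all 7 libraries. How many reached 0.05 in that fit was not counted, and with all 7 libraries 3.19% did. The ratio of Cspg4 to Pdgfra within a library ran only from 0.123 to 0.175.

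C1ql1, on chromosome 11 from 102939264 to 102946688, encodes a secreted C1q-like protein made by precursors and by some neurons. It was scarce, with 49, 29, 26 and 56 counts in CD and 13, 31 and 65 counts in KD, or 1.40, 0.970, 0.793 and 1.53 CPM against 0.556, 0.911 and 2.92 CPM. The KD libraries held both the lowest and the highest value. The log2 fold change of 0.31 (standard error 0.54, 95% interval -0.93 to 1.54) rested on KD replicate 3, without which it was -0.64.

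Among the genes of newly forming oligodendrocytes, Gpr17 had the most positive log2 fold change of the whole list, still inside the spread between mice. Gpr17, on chromosome 18 from 31942997 to 31949636, encodes a G protein-coupled receptor of the premyelinating stage that holds back maturation. It had 24.6, 15, 22.1 and 27.3 CPM in CD and 31.3, 18.9 and 32.8 CPM in KD. KD replicates 1 and 3 lay above every CD library, and KD replicate 2 lay below 3 of the 4. The means were 22.3 ± 5.28 CPM (SD, n = 4) and 27.6 ± 7.61 CPM (SD, n = 3), a log2 fold change of 0.32 (standard error 0.23, 95% interval -0.20 to 0.84, adjusted p = 0.979, edgeR). Without KD replicate 2 it was 0.53 (standard error 0.20), with a raw p under 0.05 but an adjusted p of 0.969 in edgeR's test. In that fit 96 of all tested genes reached the stricter raw p of 0.01, beside 51 with all 7 libraries. How many reached 0.05 in that fit was not counted, and with all 7 libraries 3.19% did. Of the exon sequence of Gpr17, 3.62% is shared with the opposite-strand gene Lims2, which had 2.38 to 4.26 CPM.

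Enpp6 and Bcas1 varied far more from mouse to mouse. Enpp6, on chromosome 8 from 46986887 to 47096762, encodes a choline phosphodiesterase switched on in cells that have just stopped being precursors. It had 8.55, 7.32, 1.92 and 7.10 CPM in CD and 8.64, 4.76 and 4.27 CPM in KD, so CD replicate 3 was the lowest and KD replicate 3 the next. The means were 6.22 ± 2.94 CPM (SD, n = 4) and 5.89 ± 2.39 CPM (SD, n = 3), a log2 fold change of -0.07 (standard error 0.47, 95% interval -1.15 to 1.01).

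Bcas1, on chromosome 2 from 170346991 to 170427845, encodes a protein of early myelinating cells that is also found in mature myelin. It had 118, 80.6, 23.0 and 69.6 CPM in CD and 105, 57.2 and 21.1 CPM in KD, which set the same libraries apart at the bottom of each diet. The means were 72.7 ± 39.0 CPM (SD, n = 4) and 61 ± 41.8 CPM (SD, n = 3), a log2 fold change of -0.24 (standard error 0.60, 95% interval -1.61 to 1.13). The spread of Bcas1 between mice of a diet (SD 1.07 on the log2 scale) was larger than that of 98.1% of the 15881 tested genes, and that of Enpp6 (0.83) larger than 95.3%. For Pdgfra (0.31) the figure was 66.1%.

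The lineage transcription factors all had lower means on KD, each by less than the spread between mice. Olig1, on chromosome 16 from 91269772 to 91271933, encodes a basic helix-loop-helix factor needed for myelin repair. It had 26.5, 24.7, 13.6 and 28.3 CPM in CD and 22.5, 16.6 and 15.3 CPM in KD. All KD libraries lay below 3 of the CD libraries and above CD replicate 3. The log2 fold change was -0.35 (standard error 0.25, 95% interval -0.92 to 0.23), and without CD replicate 3 it was -0.53 (standard error 0.16), with a raw p under 0.05 but an adjusted p of 0.674 in edgeR's test. In that fit 211 of all tested genes reached the stricter raw p of 0.01, beside 51 with all 7 libraries. How many reached 0.05 in that fit was not counted, and with all 7 libraries 3.19% did.

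Olig2, the neighbouring gene from 91225457 to 91228677, specifies the lineage and had 11.3, 8.33, 8.30 and 14.4 CPM in CD and 11.1, 7.02 and 8.04 CPM in KD. The groups overlapped, with a log2 fold change of -0.27 (standard error 0.24, 95% interval -0.81 to 0.28). The ratio of Olig2 to Olig1 ran from 0.336 in CD replicate 2 to 0.611 in CD replicate 3. Both genes lie on the same strand, and neither shares exon sequence with the other.

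Sox10, on chromosome 15 from 79154908 to 79165240, encodes the SOX factor that turns on myelin genes. It had 15.8, 15.9, 5.55 and 19.9 CPM in CD and 16.8, 8.46 and 6.60 CPM in KD, so replicate 3 was again the lowest library of each diet. Its log2 fold change was the most negative of the list at -0.41, but the standard error was 0.45 and the 95% interval ran from -1.43 to 0.60. Nkx2-2, on chromosome 2 from 147177546 to 147194243, helps precursors to differentiate and was near the limit of what these libraries can compare. It had 22, 13, 10 and 35 counts in CD and 18, 12 and 11 counts in KD, a log2 fold change of -0.11 (standard error 0.48, 95% interval -1.22 to 0.99).

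KD and CD were compared over all 15881 tested genes with edgeR's quasi-likelihood test and Benjamini-Hochberg adjustment. Of the 10 genes, 0 reached a raw p of 0.01, the threshold of the study. Of all tested genes 0.321% did, with 0.151% higher and 0.17% lower in KD. At a raw p of 0.05 the count was again 0 of 10, as against 3.19% of all tested genes. None passed an adjusted p of 0.05 (0% of all tested genes did), with adjusted values from 0.979 to 0.993. Over 21 other fits with edgeR, DESeq2 or limma the lowest adjusted p was 0.835 for Cspg4, 0.779 for Gpr17 and 0.674 for Olig1, and the highest was 1.0 for each. DESeq2 and limma-voom called 0 of the 10 at the raw threshold of 0.01, where they called 120 and 38 of all tested genes. Of the 21 other fits 1 called 1 gene there, Gpr17, and it called 182 of all tested genes. That fit blocks on the replicate number, a pairing the labels do not state, and leaves out CD replicate 4. The CD and KD ranges overlapped for all 10, where 4.2% of tested genes had ranges that did not. The log2 fold change was above 0 for 4 of the 10, beside 49% of all tested genes, and their median was -0.09, beside -0.003 over all tested genes. The intervals leave room for sizeable differences. For Bcas1, Enpp6, C1ql1, Sox10 and Nkx2-2 they take in a change of 1 on the log2 scale in at least one direction, and for Pdgfra they end at -0.34 and 0.48.

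**Figure D2:**
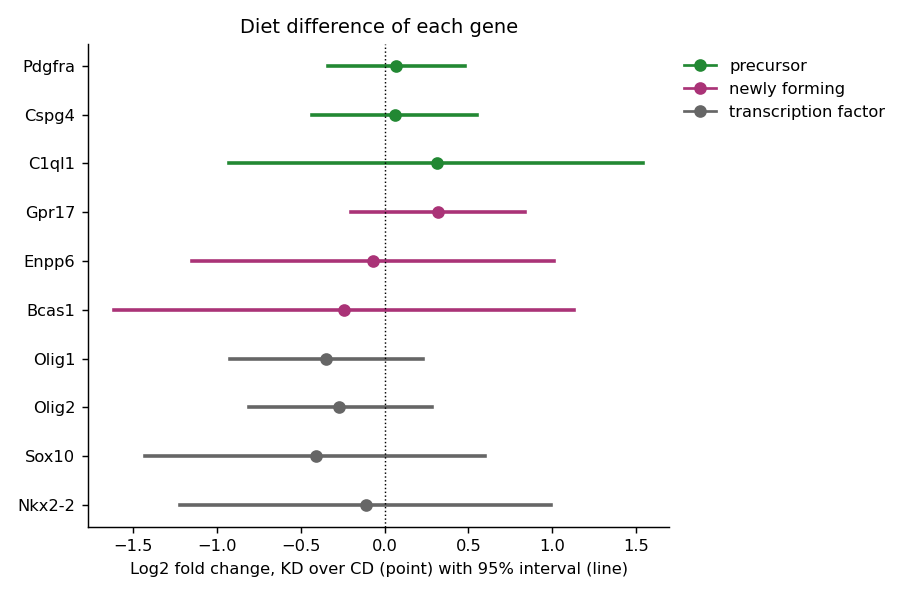
Log2 fold change of KD over CD (horizontal axis) for each of the 10 genes, as a point with its 95% interval, coloured by role. Every interval crosses 0, from the narrow one of Pdgfra (-0.34 to 0.48) to the wide one of Bcas1 (-1.61 to 1.13).

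Set against the mature oligodendrocyte genes of the same library, the 10 genes differed in how closely they kept step with myelin. CD replicate 3 and KD replicate 3 were the 2 lowest of the 7 libraries for 12 of 12 mature genes, for Enpp6 and Bcas1 among the newly forming genes and for Olig1 and Sox10 among the factors, but for 0 of the 3 precursor genes. That 0 rests on KD replicate 3 alone. CD replicate 3 was the next-to-lowest of the 7 libraries for Pdgfra, Cspg4 and C1ql1, with 76.9, 10.6 and 0.793 CPM. Over all tested genes the same 2 libraries were lowest for 7.30%. These libraries were singled out by their mature genes after those values were seen, so the counts are a description. In KD replicate 3, where Bcas1 was at its lowest, Gpr17 and C1ql1 were at their highest and Pdgfra was second only to CD replicate 4. KD replicate 3 was also the highest KD library for 9 of 9 meningeal fibroblast genes and 6 of 8 neuroblast and olfactory bulb genes. The latter summed to 109 CPM there, against 71.9 and 83.0 CPM in the other KD libraries. Whether tissue make-up added to these levels was not tested.

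The distance between a gene and the mean of the 12 mature genes, on the log2 scale, shows how closely each kept step. The mature mean itself moved by 1.91 between its lowest and highest library. The distance moved by 0.66 for Sox10 and by 0.70 for Bcas1, less than the levels of those genes, which moved by 1.82 and 2.47. For Enpp6 the distance moved by 1.17 and the level by 2.11. For Pdgfra it was the other way, with a distance that moved by 2.48 and a level that moved by 0.65. The distance also moved more than the level for Cspg4 (2.17 against 0.92), C1ql1 (4.08 against 2.20), Gpr17 (2.81 against 1.12), Olig2 (1.64 against 1.02), Nkx2-2 (1.84 against 1.38) and, by the least, Olig1 (1.32 against 1.05). Olig1 was thus low in the 2 libraries lowest in mature genes, yet moved by less than those genes did.

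The ratio of Bcas1 to Mbp, which encodes myelin basic protein, was 0.0970, 0.0955, 0.0904 and 0.0866 in CD and 0.101, 0.114 and 0.0795 in KD. It stayed within 1.44-fold while Mbp itself ran from 254 to 1210 CPM. The ratio of Bcas1 to Pdgfra ran from 0.180 in KD replicate 3 to 1.49 in CD replicate 1, an 8.29-fold span. Bcas1 and Enpp6 are listed with Gpr17 as genes of newly forming cells, but in these cortices the 3 did not move together: the ratio of Gpr17 to Bcas1 ran from 0.186 in CD replicate 2 to 1.55 in KD replicate 3, an 8.34-fold span.

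**Figure D3:**
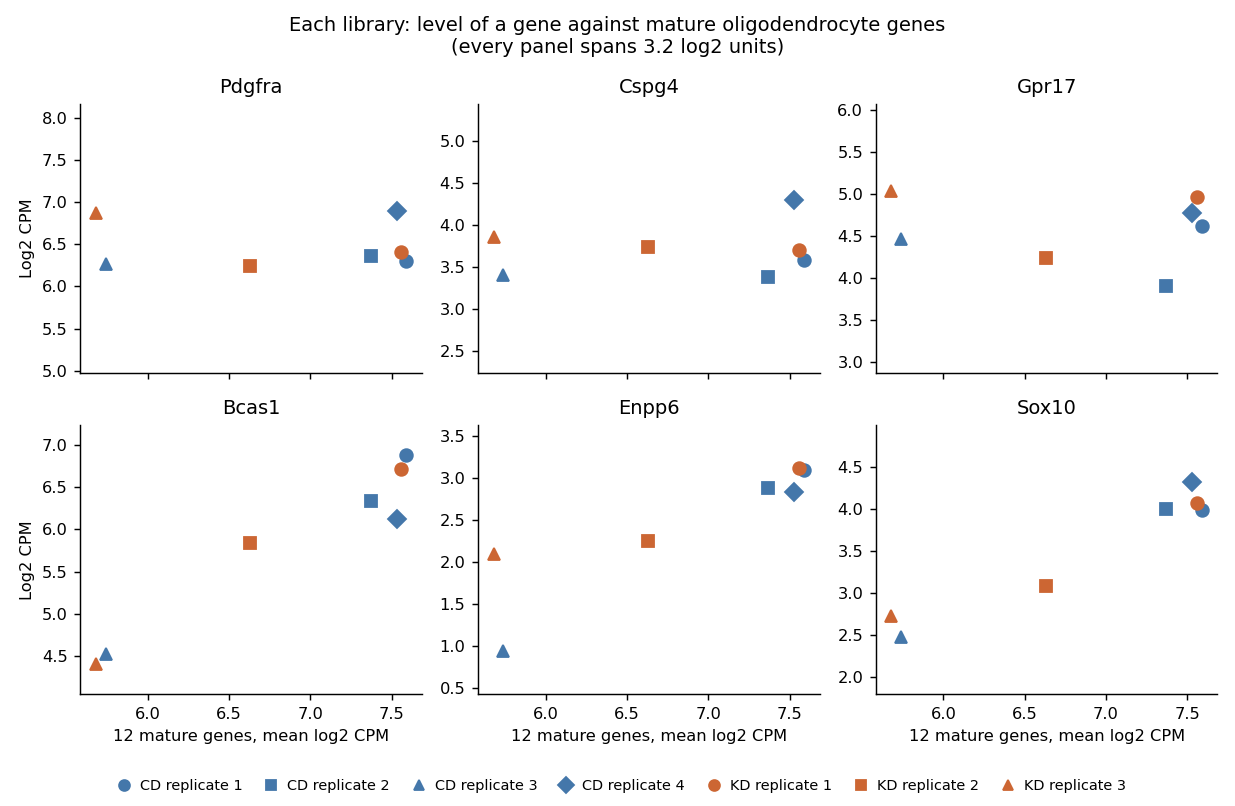
Log2 CPM of 6 of the genes (vertical axes, each 3.2 log2 units high) against the mean log2 CPM of 12 mature oligodendrocyte genes in the same library (horizontal axis), one symbol per library. Bcas1, Enpp6 and Sox10 are lowest in the 2 libraries at the left, where the mature mean is 5.68 and 5.74, while Pdgfra, Cspg4 and Gpr17 are not.

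With CD replicate 3 and KD replicate 3 both left out, a choice made after their values were seen, the log2 fold changes were -0.18 for Pdgfra, -0.06 for Cspg4, -0.78 for C1ql1, 0.20 for Gpr17, -0.17 for Enpp6, -0.12 for Bcas1, -0.41 for Olig1, -0.30 for Olig2, -0.43 for Sox10 and -0.26 for Nkx2-2. Olig1 alone of the 10 then had a raw p under 0.05 (adjusted p = 0.849, edgeR). In that fit 156 of all tested genes reached the stricter raw p of 0.01, beside 51 with all 7 libraries. How many reached 0.05 in that fit was not counted, and with all 7 libraries 3.19% did. With the mean of the mature genes as a covariate, Sox10 moved from -0.41 to -0.03 and Olig1 from -0.35 to -0.12, and Bcas1 and Enpp6 turned to 0.19 and 0.42, while Gpr17 stayed at 0.33 and Pdgfra at 0.05. No gene of the 10 passed an adjusted p of 0.05 in either fit.

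Genes with related roles were looked at in lists written by hand. Of 17 other precursor genes, 4 reached a raw p of 0.05 and all 4 were higher in KD, beside 1.66% of all tested genes, and 0 were lower, beside 1.52%. Their median log2 fold change was 0.24, and none passed the adjusted threshold. The list was written with the value of Ptprz1 in these samples already known, so it is not independent evidence of a direction. Other lists held genes past a raw p of 0.05 too, in both directions. Of 10 microglia genes 8 were higher in KD (median 0.23), beside 49% of all tested genes. Of these 10, 2 reached a raw p of 0.05, Itgam at 0.47 (standard error 0.16) and Csf1r at 0.35 (standard error 0.15), both higher in KD. Lower in KD at that threshold were Gad1 of 8 neuron genes (-0.37, standard error 0.12) and Kcnj8 of 9 pericyte and smooth muscle genes (-0.57, standard error 0.2). Whether the precursor list differed from the microglia list was not tested.

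Ptprz1 encodes a receptor phosphatase of precursors and astrocytes that keeps precursors from maturing. It had 193, 159, 187 and 191 CPM in CD and 262, 210 and 296 CPM in KD, so that every KD library lay above every CD library (log2 fold change 0.50, standard error 0.12, adjusted p = 0.979, edgeR). Ccnd1, which encodes cyclin D1 of the cell cycle, had 32.6, 36.5, 28.2 and 26.6 CPM in CD and 47.6, 37.8 and 59.7 CPM in KD, again without overlap (log2 fold change 0.65, standard error 0.17). These 2 genes also reached a raw p of 0.01. Sox6, a SOX factor that keeps precursors undifferentiated, differed by 0.34 on the log2 scale (standard error 0.12). Megf11, which encodes a cell surface protein, differed by 0.24 (standard error 0.10). The adjusted p of Ptprz1, Ccnd1, Sox6 and Megf11 was 0.979 for each in edgeR's test. Without KD replicate 1 or without KD replicate 3, Ptprz1 and Ccnd1 alone of the 17 reached a raw p of 0.05. Both did so in each of 21 other fits, where the lowest adjusted p was 0.395 for Ptprz1 and 0.597 for Ccnd1 (edgeR, DESeq2 and limma). Cspg5, the most abundant of these genes, was at 260 and 251 CPM on CD and KD (log2 fold change -0.04, standard error 0.09). KD replicate 3 was the highest KD library for 12 of the 17.

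Genes that mark dividing cells were scarce. Mki67, Top2a, Ccnb1, Cdk1 and Birc5 together reached 3.96 to 7.72 CPM in CD and 5.16 to 9.41 CPM in KD, and 0 of the 5 reached a raw p of 0.05. For Top2a, a topoisomerase and the highest of them, the log2 fold change was 0.31 (standard error 0.42).

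Of 16 other genes of newly forming oligodendrocytes, 15 were tested, 9 of them higher and 6 lower in KD, and 0 reached a raw p of 0.05. Nfasc, the most abundant, which encodes neurofascin of the axon and the myelin loop, averaged 186 CPM in CD and 169 CPM in KD (log2 fold change -0.13, standard error 0.14). Casr was below the filter, with 11.4 CPM in KD replicate 3 and at most 0.737 CPM elsewhere. Their summed levels were 491 to 589 CPM in CD and 490 to 551 CPM in KD.

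The ligands and partners of the receptors on these cells did not pass the test either. Of 14 genes of PDGF and C1q-like signaling, 6 were higher and 8 lower in KD, and 0 reached a raw p of 0.05. Pdgfa, the ligand that precursors depend on, had means of 15.9 ± 0.966 CPM (SD, n = 4) in CD and 15.9 ± 0.656 CPM (SD, n = 3) in KD. The C1q-like receptor gene Adgrb3, listed under its older symbol Bai3, averaged 211 CPM in CD and 235 CPM in KD (log2 fold change 0.17, standard error 0.10). Pik3r1, the most abundant of the 14, which encodes a regulatory subunit of PI3 kinase, averaged 291 and 262 CPM (log2 fold change -0.14, standard error 0.16).

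Among 9 genes that drive differentiation and 9 that hold it back, 0 reached a raw p of 0.05, with medians of -0.04 and -0.03. Tcf4, a helix-loop-helix partner of Olig2, was the most abundant driver, at 553 CPM in CD and 440 CPM in KD (log2 fold change -0.31, standard error 0.19). Id2, which blocks such factors, was the most abundant brake, with -0.08 (standard error 0.19). Myrf, the factor that switches on and maintains myelin genes, had 15.8, 18.4, 6.04 and 17.5 CPM in CD and 21.1, 7.41 and 4.13 CPM in KD, so it too was lowest in replicate 3 of each diet. It was named after its values were seen.

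All 12 mature oligodendrocyte genes had lower means on KD (median log2 fold change -0.40), but 0 of them reached a raw p of 0.05. Leaving out single libraries moved the median between -0.999 and -0.038, the latter without KD replicate 3.

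**Figure D4:**
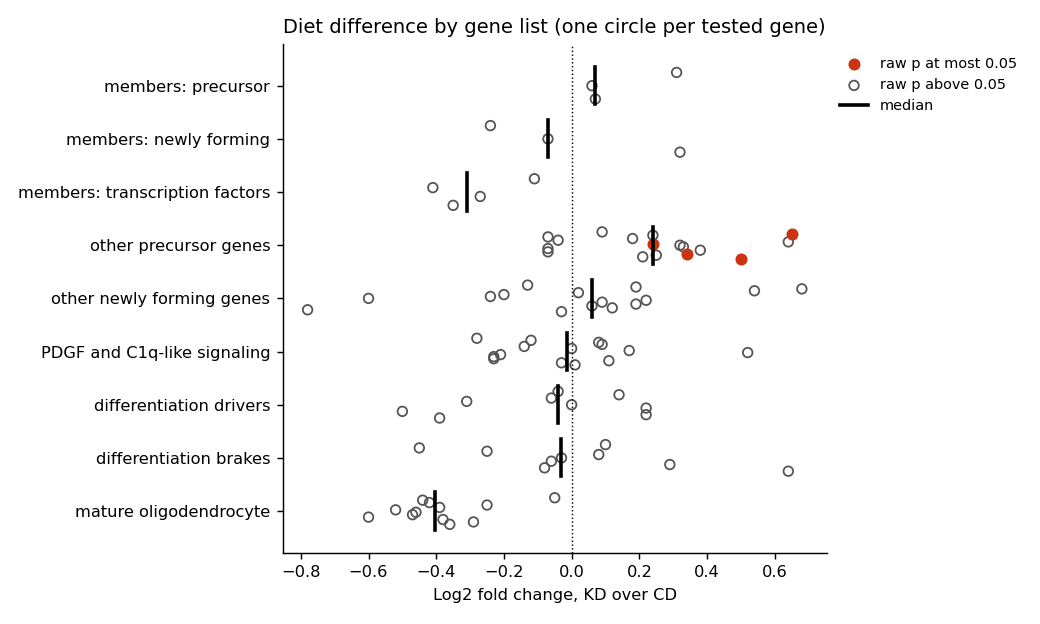
Log2 fold change of KD over CD (horizontal axis) for the tested genes of each list, one circle per gene, filled red where the raw p was at most 0.05, with the list's median as a black bar. Of the lists shown, the red circles lie in the other precursor genes alone (4 of 17), and the 12 mature oligodendrocyte genes all lie left of 0.

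The genes whose log2 CPM was most like that of 1 member of each role were sought among all tested genes by Pearson's r over the 7 libraries. For Sox10 they were Carhsp1 (r = 0.993), the myelin tight junction gene Cldn11 (0.992) and the oligodendrocyte connexin gene Gjc3 (0.991), with Spearman's rho of 1.0, 1.0 and 0.893. Without CD replicate 3 and KD replicate 3, the libraries farthest from the median of Sox10, r was 0.997, 0.981 and 0.984 over 5 libraries. For Pdgfra they were Zic2 (0.991), Arhgap12 (0.989) and Mtss1 (0.986), with rho of 0.821, 0.964 and 0.929. Without CD replicate 4 and KD replicate 3 these fell to 0.783, 0.917 and 0.735, so the likeness rested in part on the 2 libraries highest in Pdgfra. For Gpr17 they were Klhl5 (0.986), the netrin receptor gene Neo1 (0.979) and Glra4 (0.971), with rho of 1.0, 1.0 and 0.964 and values of 0.962, 0.947 and 0.971 without CD replicate 2 and KD replicate 3. With 7 libraries and 15881 genes many genes come this close: 267 had an r of at least 0.9 with Sox10, 263 with Pdgfra and 71 with Gpr17.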

How the data were processed

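RNA-seq counts of 7 mouse cortices (4 CD, 3 KD) were grouped by their labels. The authors extracted RNA from 10 mg of frozen cortex, made stranded total RNA libraries, read them in 50-bp paired-end mode, mapped them to mm10 with STAR and took gene counts from its HTSeq mode. The deposited values are raw counts per gene symbol, neither normalized nor pooled. The annotation and strand setting are not given in the sources used here. Reads where genes overlap, also on opposite strands, may thus be counted for the wrong gene or left uncounted. From the counts, KD was compared with CD by edgeR 4.0.16 in R 4.3.3 (filterByExpr, TMM, estimateDisp, glmQLFit with robust=TRUE, glmQLFTest, no covariate), with Benjamini-Hochberg adjustment over 15881 genes. Intervals are 95% intervals of the fit, with a standard error taken from the fold change and its F value. Ratios and log2 levels used CPM on library totals, with 0.1 CPM added before the log2. Coordinates and exon lengths came from GENCODE M21, and 3 list genes were found under older symbols.

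P-values measure the spread between mice. No pair of libraries of a diet agreed within sampling noise (chi-square per gene 16.1 to 68.3), so none was counted as a library deposited again. The members and gene lists were chosen with earlier results of these data known. Named genes were the 10 members, genes of the related lists with a raw p up to 0.05, the most abundant gene of a list (for the mature oligodendrocyte list it is not reported here), and the 3 most like genes for Pdgfra, Gpr17 and Sox10. Mbp, Myrf, Pdgfa, Adgrb3, Lims2, Casr, Itgam, Csf1r, Gad1, Kcnj8 and the remaining proliferation genes were named after their values were seen. Alternatives were RLE, upper-quartile and library-size scaling, filters of at least 1 count and of at least 1 CPM in 3 libraries, the likelihood-ratio test, DESeq2 1.42.0, limma-voom (limma 3.58.1), robust=FALSE, Xist or the mature oligodendrocyte mean as a covariate, a replicate block, TMM-scaled CPM, and leaving out each library.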

Additional observations from a re-analysis of the deposited data

Results flagged for a closer look

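Of 14 values examined in the CD group of 4 libraries for a library far from the others (its gap to the closest other one, divided by the group's range), 2 passed Dixon's critical value, where chance flags about 1 in 20 groups. For Pdgfra, CD replicate 4 had 119 CPM against 76.9 to 81.9 CPM in the other CD libraries, a gap over range of 0.883. For the mean log2 CPM of the 12 mature oligodendrocyte genes, CD replicate 3 had 5.74 against 7.37 to 7.59, a gap over range of 0.881. In CD replicate 4, Cspg4 came close with 0.823.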

How the results depend on the processing

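No gene of the 10 passed an adjusted p of 0.05 in any of the 21 other fits, where the smallest adjusted p was 0.674, and Gpr17, Olig1 and Olig2 kept their direction in all of them. Some log2 fold changes changed sign. Under limma-voom they were -0.02 for C1ql1 and 0.03 for Enpp6. With the mature oligodendrocyte mean as a covariate they were -0.07 for C1ql1, 0.42 for Enpp6, 0.19 for Bcas1 and 0.15 for Nkx2-2. Without both CD replicate 3 and KD replicate 3 they were -0.18 for Pdgfra, -0.06 for Cspg4 and -0.78 for C1ql1, and without both CD replicate 4 and KD replicate 3 they were -0.49 for C1ql1, 0.17 for Enpp6, 0.14 for Bcas1, 0.02 for Sox10 and 0.27 for Nkx2-2 (both choices made after seeing the data). With each of the 7 libraries left out in turn they ran from -0.12 to 0.22 for Pdgfra, -0.03 to 0.30 for Cspg4, -0.64 to 0.69 for C1ql1, 0.18 to 0.53 for Gpr17, -0.45 to 0.13 for Enpp6, -0.87 to 0.17 for Bcas1, -0.54 to -0.23 for Olig1, -0.48 to -0.10 for Olig2, -0.91 to -0.16 for Sox10 and -0.46 to 0.21 for Nkx2-2. The cause was not tested.

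The count of all tested genes that reached a raw p of 0.01 was 51 in the fit used above, and the study itself reported a larger count at that threshold. In other fits made here it was 103 with the likelihood-ratio test, 120 with DESeq2, 212 with Xist as a covariate and 156 without both CD replicate 3 and KD replicate 3. It was 19 without CD replicate 1 and 211 without CD replicate 3, the extremes over single libraries left out. The likelihood-ratio test and the Xist covariate each gave 1 gene past the adjusted threshold. The count of other precursor genes that reached a raw p of 0.05 and were higher in KD was 4, ran from 2 to 5 with single libraries left out, and was 2 without both CD replicate 4 and KD replicate 3. The median of the neuroblast and olfactory bulb list was -0.59, ran from -1.238 to 0.255 in the same way, and was -0.137 without both CD replicate 4 and KD replicate 3.

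Whether the replicate numbers pair the mice is not settled. The labels name no shared litter, batch or day, the deviations of libraries 1, 2 and 3 of CD and KD from the means of their diets correlated at 0.251, 0.195 and 0.098, and 5 of 6 libraries correlated best with their own number, a hint from the data and not the design. A fit with the replicate block, without CD replicate 4, brought 182 genes to a raw p of 0.01, of the 10 genes 1 (Gpr17, log2 fold change 0.41, standard error 0.11, adjusted p = 0.83, edgeR), put Bcas1 at -0.27 (standard error 0.11, adjusted p = 0.835, edgeR) with a raw p under 0.05, Enpp6 at 0.13 and Nkx2-2 at 0.22, and the neuroblast and olfactory bulb median at 0.257. How many of all tested genes reached a raw p of 0.05 in the fit with the replicate block was not counted. Nkx2-2 was not tested under the filter of at least 1 CPM in 3 libraries. Depth limits Nkx2-2 and C1ql1 most, with at most 35 and 65 counts in a library.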
